A study of Mus musculus with 2 samples.

Results

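The enzymes of glycolysis and of the pentose phosphate pathway were described in differentiating mouse erythroid cells from 37 genes. They were listed by symbol, with earlier results of these data known. They comprise 30 genes of glucose uptake, glycolysis, the bisphosphoglycerate bypass and lactate export, and 7 genes of the pentose phosphate pathway. All 37 were found among the 43346 Ensembl genes listed for each library. G1E-ER4 is an immortalized erythroid line from a male C57BL/6J mouse in which Gata1, the gene of a master regulator of the red cell lineage, has been restored in a form that estradiol switches on. The cells received 10 nM 17beta-estradiol for 24 h, and total RNA was sequenced from 2 biological replicates. This was the only group, so every value is a level in induced cells of 1 line, there is no change with treatment to report and no contrast to test.

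Glycolysis splits glucose into pyruvate and yields ATP and NADH, and lactate dehydrogenase regenerates the NAD+ that it consumes. Mature red cells have no mitochondria and depend on this route for their ATP. They also divert part of its 1,3-bisphosphoglycerate into 2,3-bisphosphoglycerate, which lowers the oxygen affinity of hemoglobin. The pentose phosphate pathway branches off at glucose 6-phosphate and supplies NADPH, the reducing power that protects hemoglobin and the membrane from oxidation, and ribose for nucleotides. Inherited defects of several of these enzymes, above all pyruvate kinase, glucose-6-phosphate dehydrogenase and hexokinase, cause hemolytic anemia.

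Levels are given as TPM, a measure that divides the reads of a gene by its length and gives every library the same sum. Nuclear protein-coding genes held 22.7% of the TPM in replicate 1 and 22.9% in replicate 2, so a TPM scaled to those genes alone would be 4.41 and 4.37 times higher. Expected counts, the estimated reads per gene, summed to 50277914 and 47478888, of which 293245 and 285964 fell on the 37 genes. The line was checked against marker lists. All 12 erythroid markers were detected, with a summed level of 1661 and 1677 TPM, and the beta-globin gene Hbb-bs alone reached 994 and 1008 TPM. Among the 12, Gata1 is the gene restored in this line, so its detection does not check the line. None of 9 granulocyte and macrophage markers was detected, and their summed level was 1.42 TPM in replicate 1 and 5.28 TPM in replicate 2, with Csf1r at 0 counts in both. Of 6 muscle markers only Des was detected, with 2.07 and 2.57 TPM, and no marker of liver or neuron was. Of 5 megakaryocyte markers 4 were detected, with sums of 31.8 and 24.2 TPM. In bulk RNA, fewer cells of a type and less RNA per cell cannot be told apart.

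Of the 37 genes, 31 (83.8%) were detected, meaning a TPM of 1 or more in both libraries. Among all 21461 nuclear protein-coding genes the share was 40.2%. The median level was 20.1 TPM over the 37 genes and 0.025 TPM over all nuclear protein-coding genes. Over detected genes only, the medians were 27.1 TPM and 9.76 TPM. Mean levels were at or above 100 TPM for 10 genes, between 10 and 100 TPM for 14, between 1 and 10 TPM for 7, and below 1 TPM for 6. Gapdh, Ldha, Aldoa and Eno1 stood at ranks 2, 24, 46 and 62 among nuclear protein-coding genes. The 6 genes that were not detected, Hk3, Pfkfb3, Pgam2, Eno2, Ldhb and Slc16a3, all belong to steps at which another isozyme was detected.

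**Figure D1:**
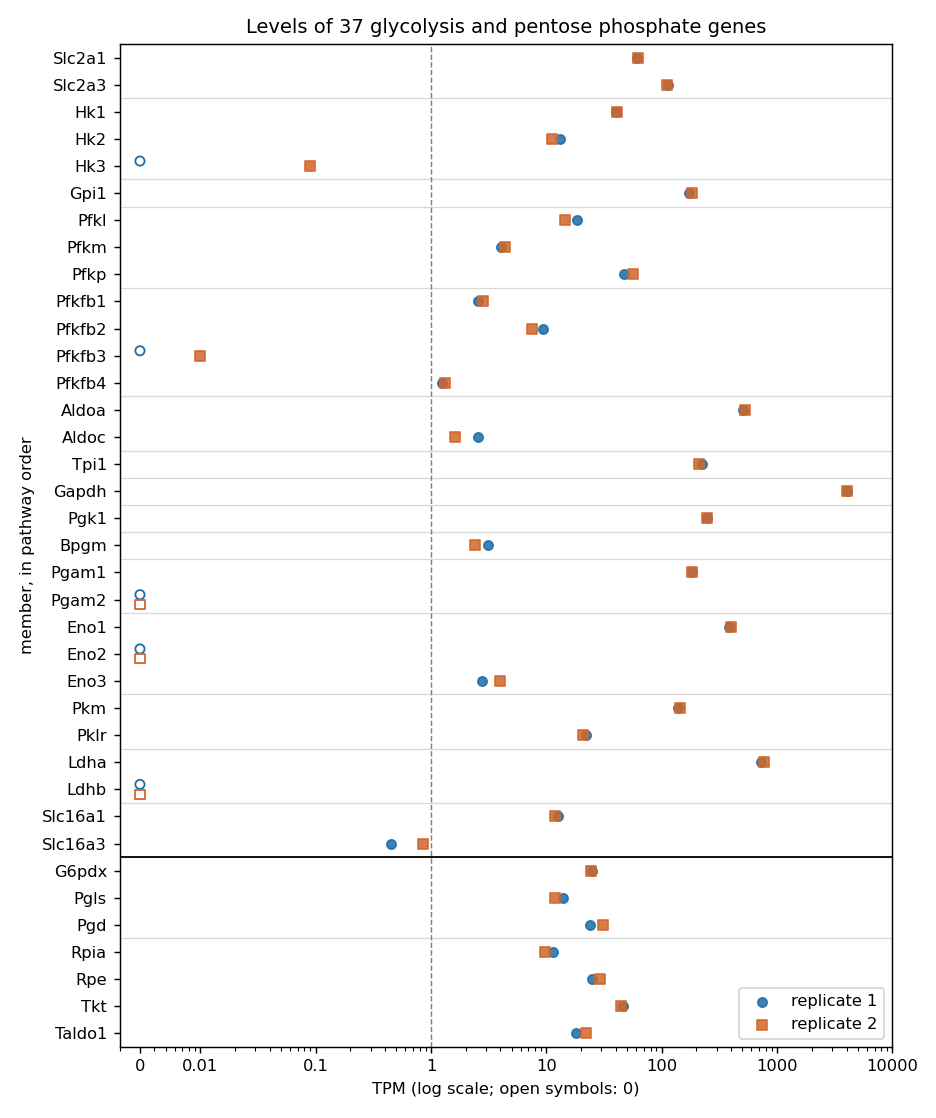
TPM of each of the 37 genes (log scale, open symbols at 0) in pathway order from glucose transport at the top to the pentose phosphate enzymes at the bottom, with circles for replicate 1, squares for replicate 2 and a dashed line at 1 TPM. Gapdh stands alone at 4043 and 4054 TPM, and each step of the pathway has at least 1 gene to the right of the dashed line.

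The 30 glycolysis genes summed to 6959 and 7064 TPM, which is 3.08% ± 0.0147 (SD, n = 2) of what nuclear protein-coding genes summed to. Gapdh made up 57.7% of that sum, Ldha 10.6%, Aldoa 7.33%, Eno1 5.55% and Pgk1 3.52%. Without Gapdh the sum was 2963 ± 66.5 TPM, or 1.30% ± 0.0216. The 7 pentose phosphate genes summed to 164 and 172 TPM, or 0.0738% ± 0.00228. On expected counts, in which longer messages weigh more, the shares were 1.97% for glycolysis and 0.0819% for the pentose phosphate pathway. Gapdh, the most abundant of these messages, is short, with an estimated length of 991 nt in replicate 1 against 2432 nt for Pkm.

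Glucose enters the cell through facilitative transporters, and Slc2a3 and Slc2a1 were both detected. Slc2a3, which encodes the high-affinity transporter GLUT3 (chr6:122727809-122801640, minus strand, mm10), was at 113 TPM in replicate 1 and 111 TPM in replicate 2. Slc2a1, which encodes GLUT1, the main glucose transporter of human red cells (chr4:119108711-119137983, plus strand), was at 60.8 and 62.3 TPM. The libraries of the pair did not overlap, and Slc2a3 exceeded Slc2a1 by 1.82 ± 0.0594 times (SD, n = 2). On expected counts the ratio was 2.72 ± 0.153, with estimated lengths in replicate 1 of 3877 nt for Slc2a3 and 2592 nt for Slc2a1.

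Hexokinase phosphorylates glucose and so traps it inside the cell. Hk1, the isozyme of brain and red cells (chr10:62268855-62379908, minus strand), was at 40.1 and 40.7 TPM. Hk2, the isozyme best known from muscle and from tumors, was at 13.1 and 11.2 TPM. Hk1 carried 76.9% ± 2.10 of the hexokinase TPM and exceeded Hk2 by 3.35 ± 0.415 times. On expected counts the share of Hk1 was 70.7% and the ratio was smaller, 2.42 ± 0.112. Hk3, a hexokinase of myeloid cells, had 0 counts in replicate 1 and 8 in replicate 2, or 0.09 TPM. Its posterior mean TPM, a second deposited estimate, was 0.35 averaged over the libraries. The granulocyte and macrophage marker sum given above was also higher in replicate 2. Mpo was at 0.060 and 1.29 TPM and Cd68 at 0.90 and 2.08 TPM, while Adgre1 and Lyz2 were slightly lower in replicate 2. The relation of this sum to the Hk3 counts was not tested.

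Glucose-6-phosphate isomerase, which makes fructose 6-phosphate at the point where the pentose phosphate pathway leaves and rejoins glycolysis, has 1 gene. Gpi1 (chr7:34201330-34230336, minus strand) was at 172 and 185 TPM. It stood 7.23 ± 0.426 times above G6pdx, the first enzyme of the other branch.

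Phosphofructokinase commits the sugar to glycolysis, and its subunits come from 3 genes. Pfkp, the platelet-type subunit (chr13:6579768-6648777, minus strand), led with 47.1 and 55.9 TPM. Pfkl, the liver-type subunit, was at 18.5 and 14.4 TPM, and Pfkm, the muscle-type subunit, at 4.04 and 4.42 TPM. Of the step's TPM, Pfkp held 71.2% ± 5.05, Pfkl 22.9% ± 5.13 and Pfkm 5.86% ± 0.083, and no library of one gene overlapped those of another. The red cell tetramers known from human blood are built of the muscle-type and liver-type subunits. In these induced cells, that pair held the smaller part of the phosphofructokinase message in both libraries.

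The PFKFB enzymes make and degrade fructose 2,6-bisphosphate, the strongest activator of phosphofructokinase. Pfkfb2 (chr1:130689182-130729253, minus strand) was at 9.27 and 7.56 TPM and held 67.6% ± 4.58 of the TPM of its family. Pfkfb1 was at 2.57 and 2.85 TPM and Pfkfb4 at 1.25 and 1.33 TPM. Pfkfb3, known for its induction by hypoxia and growth signals, had 0 counts in one library and 1 in the other. Its posterior mean was 0.64 TPM, with deposited intervals from 0.294 to 1.01 and from 0.309 to 1.07 TPM. There is therefore no firm upper limit for Pfkfb3. The whole family summed to 12.4 ± 0.948 TPM, against 72.2 ± 3.56 TPM for phosphofructokinase.

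Aldolase and triose phosphate isomerase turn 1 hexose into a pair of triose phosphates. Aldoa (chr7:126795234-126800751, minus strand) was at 504 and 525 TPM and made up 99.6% ± 0.142 of the aldolase TPM. Aldoc, the brain-type aldolase, was at 2.56 and 1.60 TPM, from 97 and 70 counts. Tpi1 (chr6:124810586-124814296, minus strand) was at 222 and 212 TPM.

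**Figure D2:**
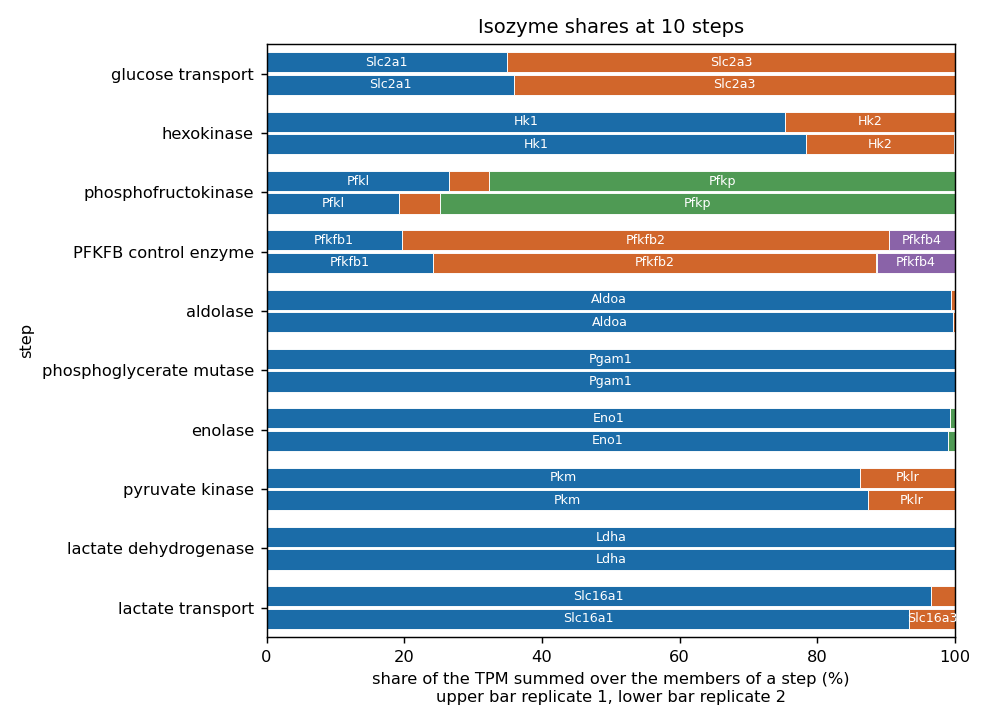
Share of the summed TPM of a step (percent) held by each isozyme, for the 10 steps with more than 1 gene examined, with replicate 1 in the upper bar and replicate 2 in the lower; unlabelled segments are Pfkm, Aldoc, Eno3 and, in replicate 1, Slc16a3. Among the genes examined, aldolase, phosphoglycerate mutase, enolase and lactate dehydrogenase rest on 1 isozyme at over 99%, while glucose transport, phosphofructokinase and the PFKFB enzymes are shared. The enolase bars leave out Eno1b, a protein-coding copy of Eno1 listed at 106 and 103 TPM.

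The ATP-yielding part of the pathway opens with its most abundant message. Gapdh, which oxidizes glyceraldehyde 3-phosphate and makes the NADH (chr6:125161715-125166467, minus strand), was at 4043 and 4054 TPM from 116196 and 114355 counts. Pgk1, the first ATP-yielding enzyme (chrX:106187100-106203699, plus strand), was at 244 and 249 TPM. Gapdh therefore stood 16.4 ± 0.184 times above Pgk1 and 100.1 ± 0.888 times above Hk1 per unit of length. On counts these ratios were 8.56 ± 0.128 and 28.1 ± 1.07, so the size of the gap depends on the division by length, but not its direction.

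Bisphosphoglycerate mutase diverts 1,3-bisphosphoglycerate into the red cell bypass that makes 2,3-bisphosphoglycerate. Bpgm (chr6:34476207-34505613, plus strand) was low, at 3.13 and 2.43 TPM from 147 and 111 counts, and ranked 7563 among nuclear protein-coding genes. Pgam1, the mutase of the main route (chr19:41911923-41918660, plus strand), was at 182 TPM in both libraries. Pgam1 exceeded Bpgm by 66.6 ± 12.0 times, and Pgk1 exceeded it by 90.3 ± 17.2 times. Pgam2, the muscle isozyme, had 0 counts in both libraries, where a floor of 3 counts would be 0.126 and 0.133 TPM. The posterior mean TPM, a second estimate that the same tables give, was 0.04 for Pgam2. Of the 6 muscle markers, Ckm, Acta1, Myh4, Tnnt3 and Mb were also at 0, while Des was at 2.07 and 2.57 TPM.

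Enolase makes phosphoenolpyruvate. Eno1 (chr4:150236721-150248879, plus strand) was at 381 and 398 TPM and held 99.1% ± 0.179 of the summed TPM of Eno1, Eno2 and Eno3. That sum leaves out Eno1b, an annotated protein-coding copy of Eno1 listed at 106 and 103 TPM. Eno1b held 21.2% ± 0.887 of the sum of Eno1 and Eno1b, and the division of reads between them is uncertain. Eno3, the muscle-type enolase, was at 2.79 and 3.94 TPM, from 105 and 146 counts. Eno2, the neuronal enolase, had 0 counts in both libraries, where 3 counts would be 0.0867 and 0.0916 TPM. Its posterior mean was higher than that floor, at 0.72 TPM, with deposited intervals, of a level not given in the sources used here, from 0.330 to 1.10 and from 0.342 to 1.16 TPM, so the tables give no firm upper limit for Eno2.

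Pyruvate kinase makes the last ATP of the pathway and is encoded by Pkm and by Pklr, the gene whose red cell form is lost in pyruvate kinase deficiency. Pkm (chr9:59656368-59679375, plus strand) was at 138 and 144 TPM. Pklr (chr3:89136142-89146784, plus strand) was at 22.1 and 20.8 TPM. Pkm thus held 86.8% ± 0.866 of the pyruvate kinase TPM, 6.60 ± 0.499 times the level of Pklr. The count ratio was 6.80 ± 0.741.

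Pkm makes the M1 or the M2 enzyme according to which of a pair of mutually exclusive exons is spliced in. M1 is the constitutively active form of muscle and brain, and M2 the regulated form of embryonic and proliferating cells. The exons are shown because they are the only coding difference between the forms and so the sequence that tells their transcripts apart. Each is 167 nt long, they lie 372 nt apart on the plus strand of chromosome 9 (mm10), and they are identical at 103 positions (61.7%). Capitals mark the 64 positions at which they differ, and the sequences were read from GENCODE M21 transcripts. The M1 exon lies at chr9:59675029-59675195 and the M2 exon at chr9:59675568-59675734.
Pkm M1 exon: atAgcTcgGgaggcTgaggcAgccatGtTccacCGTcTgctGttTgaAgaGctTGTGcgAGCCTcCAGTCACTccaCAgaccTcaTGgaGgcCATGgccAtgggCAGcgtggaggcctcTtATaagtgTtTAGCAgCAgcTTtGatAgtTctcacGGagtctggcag
Pkm M2 exon: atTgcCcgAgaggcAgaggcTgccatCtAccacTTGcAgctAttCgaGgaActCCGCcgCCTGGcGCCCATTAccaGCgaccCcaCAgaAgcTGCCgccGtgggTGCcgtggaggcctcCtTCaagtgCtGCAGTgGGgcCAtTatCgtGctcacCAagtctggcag

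The transcript tables list 2 Pkm transcripts, one with each exon. Pkm-201, with the M2 exon, was at 127 and 137 TPM from 9689 and 9905 expected counts. Pkm-202, with the M1 exon, was at 11.0 and 7.62 TPM from 841 and 552 expected counts. The M2 share was 92.0% and 94.7% in replicates 1 and 2, or 93.4% ± 1.92 (SD, n = 2). The induced cells therefore held chiefly the M2 message, and both libraries also listed the M1 message. The share was the same on counts, and both transcripts are listed with the same length of 2432 nt. In GENCODE M21, Pkm-202 is 2041 nt long, so the transcript models used for counting differed from the later ones.

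Hk1 has several first exons, spliced to a shared body, that give the enzyme different N-termini. The common first exon encodes the segment that docks hexokinase 1 on mitochondria. A second one is used in the red cell form, HK-R, which lacks that segment. The coding parts of 4 first exons are shown because they set the N-terminus that each listed transcript encodes. All are on the minus strand of chromosome 10 (mm10, from GENCODE M21 transcripts), and capitals mark the start codon. The common exon is coded at chr10:62340013-62340075, the red cell exon at chr10:62342501-62342560, an upstream exon at chr10:62358336-62358362 and a downstream exon at chr10:62327403-62327423.
Hk1 common first exon: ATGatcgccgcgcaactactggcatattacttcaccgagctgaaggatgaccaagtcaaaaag
Hk1 red cell first exon: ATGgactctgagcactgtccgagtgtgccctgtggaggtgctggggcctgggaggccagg
Hk1 upstream first exon: ATGggacagaactgccagcgaggacag
Hk1 downstream first exon: ATGgcatgtcctgtgcagaag

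Of 20 listed Hk1 transcripts, 16 had 0 counts in both libraries. The transcript with the common first exon was at 17.1 and 14.4 TPM and made up 38.9% ± 5.24 of the Hk1 TPM. The transcript with the upstream first exon was at 12.7 and 14.8 TPM, or 34.0% ± 3.38. The first of them was higher in replicate 1 and the second in replicate 2, so on TPM the pair had no fixed order. On expected counts the common-exon transcript led in both libraries, with 51.3% ± 5.69 against 38.0% ± 4.66. A short transcript of 896 nt with the downstream first exon held 20.4% ± 1.31 of the TPM but 5.03% ± 0.426 of the counts.

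The red cell first exon is carried by 3 listed Hk1 transcripts. The longest coding one of them had 0 counts in both libraries. The exon's only counts were on a retained-intron transcript with 223 and 241 expected counts, 2.49 and 2.84 TPM, and 6.59% ± 0.539 of the Hk1 TPM. It shares 640 nt with the coding one, and another 2192 nt are its own, so these counts do not show that the red cell exon itself was covered. The upstream-exon and common-exon transcripts share 3495 nt, with 144 nt found only in the former and 783 nt only in the latter. Their first exons are 27 and 530 nt long, and their 3′ ends differ as well, at 62269108 and 62268855, so part of the separating sequence lies outside the first exons. The tables list transcripts and not reads over exons, so each of these shares is an estimate that leans on a short distinguishing sequence.

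Pklr was examined the same way after its level had been seen. Its R first exon is used in red cells and its L first exon in liver. The coding parts are shown because R and L messages differ in coding sequence only there. Both are on the plus strand of chromosome 3 (mm10, from GENCODE M21 transcripts), R at chr3:89136183-89136282 and L at chr3:89136631-89136637, with the start codon in capitals.
Pklr R first exon: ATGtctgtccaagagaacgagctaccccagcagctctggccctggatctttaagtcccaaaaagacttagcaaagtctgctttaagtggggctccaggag
Pklr L first exon: ATGgaag

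The larger part of the Pklr message was assigned to Pklr-202, with the L first exon, at 17.9 and 15.4 TPM from 1647 and 1341 expected counts. That is 77.6% ± 5.0 of the Pklr TPM and 96.0% ± 2.99 of its counts. Pklr-201, the full-length transcript with the R first exon, was at 0 and 0.640 TPM, from 0 and 53.7 expected counts. Pklr-205, a noncoding transcript of 345 nt that starts in the R first exon, was at 4.16 and 4.74 TPM from 31 and 33.0 expected counts. No liver marker was detected, and Alb, Apoa1, Ttr and Cps1 were at 0 counts. Pklr-201 and Pklr-202 share 2646 nt, and 141 nt are found only in the former and 256 nt only in the latter. The transcripts also end at different 3′ positions, 89146594 and 89146784, and reads that separate the 3′ ends bear on this split as well as those over the first exons.

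**Figure D3:**
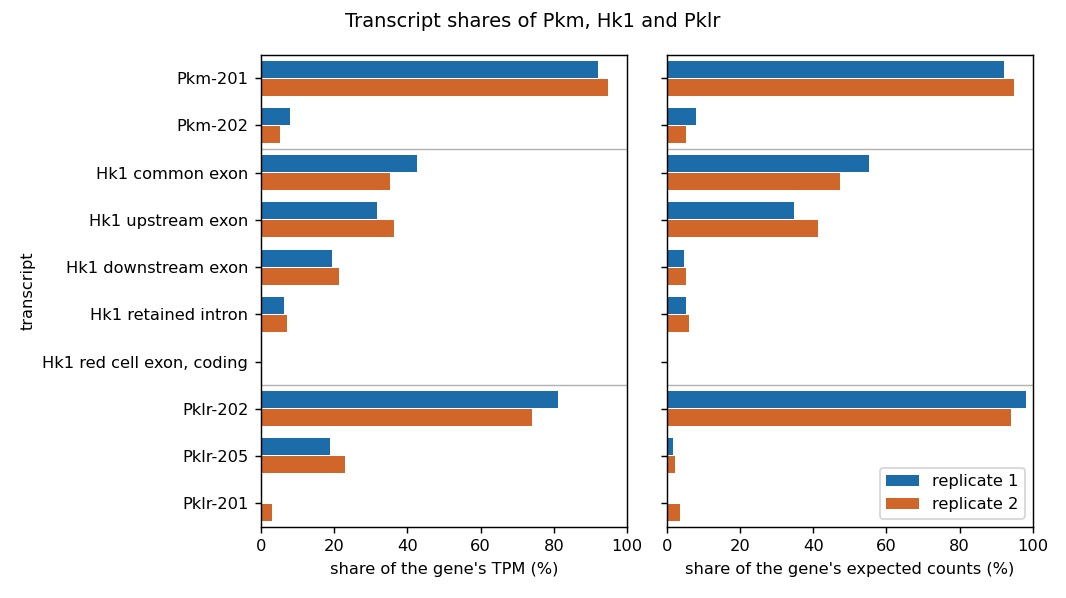
Share of each transcript with counts in its gene's TPM (left, percent) and expected counts (right, percent) for Pkm, Hk1 and Pklr. Blue bars are for replicate 1 and orange bars for replicate 2. Of the transcripts at 0 counts, only the coding red-cell-exon transcript of Hk1 has a row. Pkm-201 exceeds 90% on both scales, the common-exon and upstream-exon transcripts of Hk1 change order between replicates on TPM but not on counts, and the coding red-cell-exon transcript has no bar because it is at 0.

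Lactate dehydrogenase reduces pyruvate to lactate. Ldha (chr7:46841475-46855627, plus strand) was at 720 and 762 TPM, the second level of the pathway after Gapdh. Ldhb, the isozyme of heart that also occurs in human red cells, had 0 counts in both libraries, where 3 counts would be 0.109 and 0.115 TPM, and its posterior mean was 0.12 TPM. Ldha stood 5.25 ± 0.0419 times above Pkm and Gapdh stood 5.46 ± 0.208 times above Ldha. On counts these ratios were smaller, 3.31 ± 0.0244 and 3.32 ± 0.0457. Lactate leaves through monocarboxylate transporters. Slc16a1, which encodes MCT1 (chr3:104638668-104658462, plus strand), was at 12.6 and 12.0 TPM and held 95% ± 2.24 of the TPM of both transporter genes. Slc16a3, which encodes MCT4, was at 0.45 and 0.85 TPM, from 18 and 26 counts. Its posterior mean, averaged over the libraries, was 1.03 TPM.

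The oxidative branch of the pentose phosphate pathway makes NADPH in a pair of dehydrogenase steps. G6pdx, the X-linked glucose-6-phosphate dehydrogenase (chrX:74409483-74429194, minus strand), was at 24.8 and 24.5 TPM. Pgls, the lactonase that follows it (chr8:71592176-71601092, plus strand), was at 13.8 and 11.8 TPM. Pgd, the second dehydrogenase (chr4:149149991-149166771, minus strand), was at 24.0 and 31.2 TPM. G6pdx lay inside the range of Pgd, so the 2 dehydrogenases could not be ordered, while Pgls lay below both in each library.

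The non-oxidative branch interconverts pentose and hexose phosphates. Tkt, the transketolase (chr14:30548359-30574720, plus strand), was at 46.4 and 44.0 TPM, the highest of the 7 genes in both libraries. Rpe, the ribulose-phosphate epimerase (chr1:66700831-66719805, plus strand), was at 24.9 and 29.2 TPM. Taldo1, the transaldolase (chr7:141392199-141402968, plus strand), was at 18.2 and 22.0 TPM. Rpia, the ribose-5-phosphate isomerase (chr6:70765720-70792232, minus strand), was the lowest, at 11.4 and 9.64 TPM. Tkt stood 4.31 ± 0.358 times above Rpia and 2.28 ± 0.388 times above Taldo1. On counts the ratios were larger, 6.75 ± 0.506 and 6.12 ± 1.10. Mean levels of the 7 genes lay between 10.5 and 45.2 TPM, and all 7 were detected. The alternative isozymes of this pathway, G6pd2, Tktl1 and Tktl2, are not among the 7 and were not detected, so this count does not compare with that for glycolysis, whose list holds such isozymes.

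In order of level, with copies of the genes left out, Gapdh was followed by Ldha, Aldoa, Eno1, Pgk1 and Tpi1. No neighbours among these overlapped between libraries. Pgam1 and Gpi1 came next and overlapped. Pkm, Slc2a3, Slc2a1, Pfkp, Tkt and Hk1 followed in that order without overlap. Over all 36 neighbouring pairs of the order, 13 overlapped, among them Pgd with Rpe, Pklr with Taldo1, Hk2 with Slc16a1, and Bpgm with both Eno3 and Pfkfb1. With 2 libraries, an order without overlap is a description of these cultures.

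The 2 cultures were close for these genes. Of 31 with a mean of 1 TPM or more, 1 (3.23%) differed by 1.5-fold or more, where 7.98% of all nuclear protein-coding genes of that level did. That gene was Aldoc, at a log2 ratio of -0.65 (replicate 2 over replicate 1, with 0.1 TPM added to each value), and 3.56% of nuclear protein-coding genes lay 1.5-fold or more apart in that direction. The median absolute log2 ratio was 0.09 over the 31 genes and 0.16 over the nuclear protein-coding genes. The members were also more abundant than most of those genes, and the part of their level in the smaller ratio was not tested. Among the 10 genes at 100 TPM or more, the largest SD was 5.21% of the mean (Gpi1), and among the 14 between 10 and 100 TPM it was 18.4% (Pgd).

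Some differences between the cultures were in the estimated length of the message and not in the reads. Pfkp had a log2 ratio of 0.25 on TPM, while its counts of 4598 and 4451, scaled to the nuclear protein-coding total, gave 0.00. Its estimated length was 3078 nt in replicate 1 and 2665 nt in replicate 2. Hk2 had -0.23 on TPM and 0.04 on counts, with lengths of 4038 and 4945 nt. Rpe had 0.23 on TPM and -0.02 on counts, with lengths of 2583 and 2226 nt. For Pgd and Bpgm the scales gave like values, 0.38 and 0.31 for Pgd and -0.35 on both for Bpgm.

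**Figure D4:**
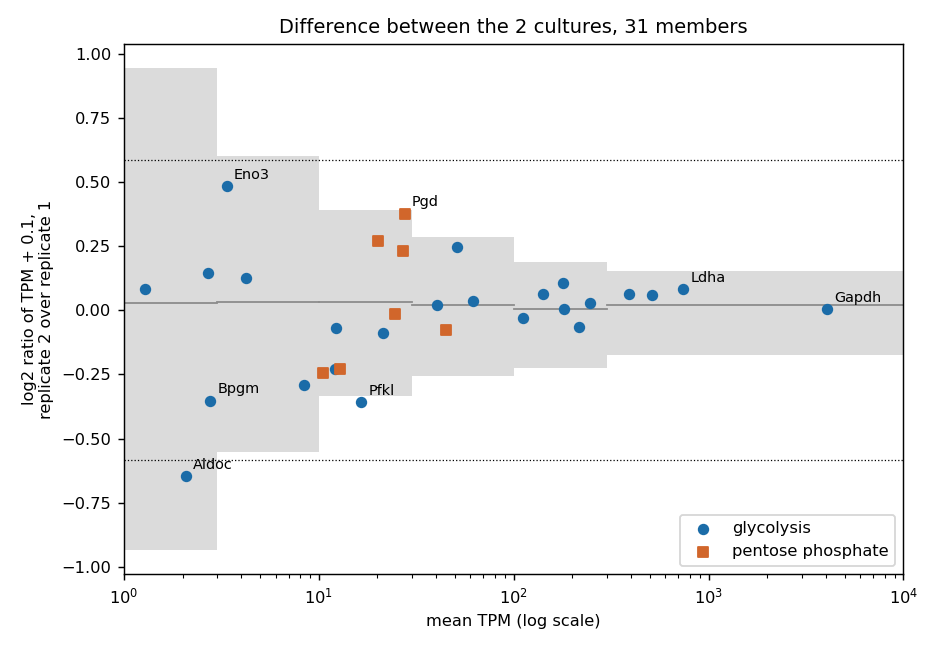
Log2 ratio of TPM + 0.1 (replicate 2 over replicate 1) against mean TPM (log scale) for the 31 genes with a mean of 1 TPM or more; grey bands span the 5th to 95th percentile of nuclear protein-coding genes of like level, grey lines their medians, and dotted lines mark 1.5-fold. Only Aldoc lies beyond a dotted line, at -0.65, and it lies inside the grey band of its level.

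Several of these genes have processed copies elsewhere in the genome whose sequence is nearly the same, and the division of reads between gene and copy is uncertain. Gapdh has 192 such pseudogenes in GENCODE M21, of which 172 are in the tables and 125 had counts. Together they were listed at 102 and 116 TPM, 2.62% ± 0.218 of the sum of Gapdh and its copies. One of them, Gm10359, is 100% identical to Gapdh over 1002 nt and was listed at 34.1 and 35.2 TPM.

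The uncertainty was larger for Pgam1, Pgk1 and Eno1. Pgam1-ps2, identical to Pgam1 over 765 nt, was listed at 74.9 and 72.3 TPM, 28.8% ± 0.542 of the sum with Pgam1. The copies of Pgk1 were listed at 23.2 and 19.6 TPM, 7.98% ± 0.963 of the sum, nearly all on Pgk1-rs7, which is identical over 1255 nt. Eno1b, an annotated protein-coding copy of Eno1 that is 99.5% identical over 1736 nt, was listed at 106 and 103 TPM, 21.2% ± 0.887 of the sum of both genes. The copies of Ldha and Gpi1 held 0.193% and 0.915% of their sums, and the 2 pseudogene copies of Aldoa in the tables had 0 counts. Aldoart1, a protein-coding copy of Aldoa that is 92.7% identical over 1508 nt, had 6 and 5 counts. With its copies added Pgam1 would stand at 257 and 255 TPM, above Tpi1. Eno1 with its pseudogene copies and Eno1b added would have a mean of 497 TPM, close to the 514 TPM of Aldoa. Pgls shares a stretch of 677 nt with a transcript of the overlapping gene Fam129c, which was listed with 33.1 and 64.2 counts against 340 and 292 for Pgls.

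**Figure D5:**
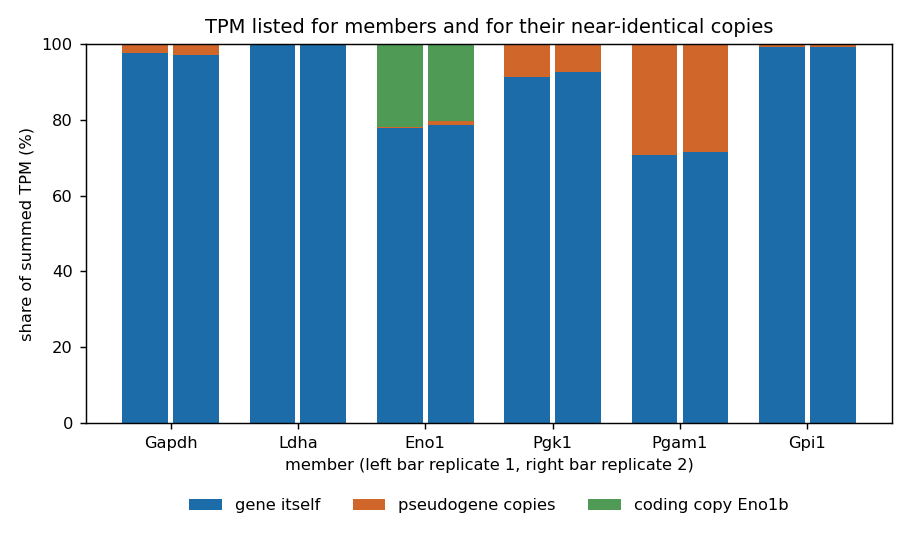
Share of the summed TPM (percent) listed for 6 glycolysis genes themselves (blue), for their pseudogene copies (orange) and, for Eno1, for the coding copy Eno1b (green), with replicate 1 on the left and replicate 2 on the right of each pair. Gapdh, Ldha and Gpi1 keep over 97% of their sums, whereas 28.8% of the Pgam1 sum is listed for its copy.

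Further genes around the pathway were taken from lists of 59 genes in all. Of 19 other transporters and tissue-specific isozymes, 2 were detected and 12 had 0 counts, among them the testis forms Gapdhs, Pgk2 and Ldhc. The exception at a high level was Bsg, the chaperone that carries MCT1 to the membrane, with 188 and 190 TPM. Slc2a8 followed at 1.22 and 1.89 TPM, and Slc2a2 crossed the threshold, at 1.63 and 0.78 TPM. Of 13 genes of mitochondrial pyruvate import and of pyruvate dehydrogenase and its control, 12 were detected, with a median of 14.1 TPM. The highest were Dld (37.3 ± 0.544 TPM) and Pdha1 (29.0 ± 0.375 TPM), subunits of pyruvate dehydrogenase, and Pdk3 (32.9 ± 1.61 TPM), a kinase that inhibits it, while Pdk4 was at 0.

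Of 20 genes of side branches, 10 were detected and 7 had 0 counts. Pgm2 (30.7 ± 2.50 TPM) and Pgm1 (16.7 ± 1.78 TPM), the phosphoglucomutases, had the highest means. Next by mean was Minpp1 (16.3 ± 1.06 TPM), which can dephosphorylate 2,3-bisphosphoglycerate, and its libraries overlapped those of Pgm1. Minpp1 stood above Bpgm, which makes that metabolite, in both libraries. Of the gluconeogenic genes listed, Fbp1, Fbp2, Pck1 and G6pc were at 0 counts, while Pck2, the mitochondrial counterpart of Pck1, was at 1.40 and 1.45 TPM. G6pc3, the widely expressed counterpart of G6pc, was at 6.94 and 10.2 TPM. Of 7 genes of oxygen control, which regulate many glycolytic genes, 5 were detected. Arnt was at 27.7 ± 1.5 TPM, Hif1a at 25.9 ± 3.72 TPM and Egln1 at 12.8 ± 0.799 TPM, while Epas1 and Egln3 had 0 counts.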

How the data were processed

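Total RNA-seq of 2 biological replicates of 1 group was analysed from a gene table and a transcript table per library. Reads were placed on mm10, per the labels, and assigned to GENCODE M4 models, per the deposited readme. Which aligner, trimming and quantifier version made them is not given in the sources used here. Expected counts, as deposited, are unnormalized estimates of reads or fragments per gene or transcript. The authors scaled the TPM of each library to the same sum, in which spike-ins take part. The deposited FPKM values, scaled by the authors by length and depth, and the deposited posterior mean TPM served as alternatives, the latter also beside genes at 0 counts. The deposited percent values are the authors' transcript shares of a gene, and shares here were recomputed from TPM and counts.

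Genes were matched by identifier without version to GENCODE M21 (mm10), which gave symbols, coordinates and transcript sequences. Of 43346 Ensembl genes, 42462 matched. Detected means a TPM of 1 or more in both libraries. Log2 ratios between replicates were taken after adding a pseudocount of 0.1, so those of low genes are understated, and ratios between genes hold no pseudocount. Isozyme shares are a gene's TPM over that of the members of its step. Copies were annotated genes that matched a member's transcripts at 90% identity or more over at least 50% of the copy (BLAST+ 2.17.0). Other steps used Python 3.11.15, pandas 2.3.3, numpy 2.4.6 and matplotlib 3.10.9. The ratio step was run on simulated counts with larger planted changes, a higher fold threshold and genes of higher counts than Aldoc. The simulated counts held counting error alone, so that run does not bear on the 1.5-fold calls between these cultures. Without molecular identifiers on the reads, the floors of 3 counts reflect counting error alone. The SD is over 2 libraries.

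The members, the lists and the named genes were chosen with earlier results of these data known. All members are named, with values per library for each leading isozyme and each member of mean TPM 10 or more. Of each further list, the 3 highest and the lowest are named, and the others that appear were chosen after their values were seen, as were the Pklr transcripts and the alternatives with Eno1b. Alternatives changed the unit, scaling, thresholds, pseudocount, filter, denominator and copies, and left out each replicate. Some genes of the further lists are not reported here by name.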

Additional observations from a re-analysis of the deposited data

How the results depend on the processing

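The leading isozyme was the same at all 10 steps under each alternative run. Runs that added copies could not change it, because the copies with counts belong to genes that lead or stand alone at their step. Eno1b was either left out or added to Eno1, and no run counted it as a separate enolase. Detected members numbered 31, with 25 at a TPM threshold of 5, 32 on TPM rescaled to nuclear protein-coding genes and 31 under the other alternatives. The glycolysis share of 3.08% became 3.03% on posterior mean TPM, 3.17% with pseudogene copies, 3.22% with Eno1b also added, 3.24% without histone genes in the denominator, 1.97% on expected counts and 0.701% of all listed features. The pentose phosphate share of 0.0738% became 0.0775% without histone genes, 0.0819% on counts and 0.0168% of all listed features. The count of 1 member 1.5-fold apart became 0 with a pseudocount of 1, 0 on scaled expected counts, 0 with a filter of 5 TPM, 0 at 2-fold and 3 with no filter. The share of the common-exon Hk1 transcript of 38.9% became 51.3% on counts, and the Pklr-202 share of 77.6% became 96.0% on counts and 98.0% over protein-coding transcripts only. The Pkm M2 share was 93.4% on counts, on posterior mean TPM and over protein-coding transcripts only, and 92.0% and 94.7% in the single libraries. Both Pkm transcripts are coding and listed with the same length, so the runs on counts and on coding transcripts could hardly move it. Leaving out a replicate leaves 1 library, whose value always lies within 1 SD of the mean, so it says nothing about stability. No paired analysis was possible because there was 1 group. Low counts limit Bpgm, Aldoc, Eno3, Pfkfb1 and Pfkfb4.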
